A study of Mus musculus with 4 samples.

Results

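The 8 genes described here, Zbtb16, Sall4, Taf4b, Foxo1, Pou5f1, Utf1, Dppa4 and Hhex, encode transcription factors associated with the undifferentiated state of spermatogonia or of pluripotent cells. They were chosen by symbol from the 32285 genes of the count matrices, and all 8 were found. The cultures came from testes of male pups of postnatal day 6, 3 pups pooled, in a study whose purchased mice were C57BL/6. Thy1-positive cells were taken by magnetic sorting and grown on STO cells, a mouse embryonic fibroblast line used as a feeder layer. For 3 days the cultures received either PBS (vehicle) or, at 1 μg/mL, extracellular vesicles (EVs). The EVs had been isolated from day 7 testis of male C57BL/6 mice. Each arm had 2 libraries, of which vehicle 1, vehicle 2 and EV 1 were measured and EV 2 entered with its 6794 barcodes only, its expression not being analysed here. The vehicle libraries therefore gave a spread and the EV arm gave none, so vehicle and EV cells are set side by side with counting intervals and without a test.

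Spermatogonial stem cells and their early progeny keep dividing without differentiating, and a set of sequence-specific regulators holds that state. Zbtb16 (also called PLZF) is a zinc finger repressor needed for long-term self-renewal, Sall4 is a zinc finger factor that acts with it, Foxo1 is a forkhead factor of the PI3K and AKT pathway, and Taf4b is a germ cell subunit of the general factor TFIID. Pou5f1 (OCT4), Utf1 and Dppa4 are known from embryonic stem cells, where they serve in pluripotency and in chromatin regulation, and Hhex is a homeobox repressor best known from endoderm and blood.

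Germ cells were set apart by summed molecule counts (UMIs, unique molecular identifiers) of Dazl, Tex15, Stk31 and Epcam, at least 2 and more than those of Col1a1, Col1a2, Sparc and Dcn, and feeder cells by the reverse. None of the 8 genes entered that rule. It gave 4411, 4783 and 227 germ cells in vehicle 1, vehicle 2 and EV 1 (53.4%, 55.4% and 4.75% of the cells kept), 2357, 2473 and 2508 feeder cells, and 1495, 1381 and 2044 cells of neither class. Germ cells held 9445041, 11013433 and 325012 UMIs, with a median of 1936, 2091 and 1322 per cell. Another 6 germ cell genes (Ddx4, Mael, Dnd1, Tdrd5, Rnf17 and Tdrd9) summed to 484, 490 and 486 counts per 1e6 UMIs (CPM) in germ cells and to 11.9, 8.92 and 2.95 CPM in feeder cells. A list of 7 fibroblast genes summed to 1435, 1498 and 1390 CPM in feeder cells and to 190, 181 and 292 CPM in germ cells. Of 6 Sertoli cell genes, 5, 5 and 3 had UMIs in germ cells, led by Sox9 at 22.6, 20.4 and 43.1 CPM, and Amh had none. In feeder cells Sox9 and Rhox5 (281 and 117 CPM in vehicle 1) held most of that list.

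The study examined let-7b and let-7c as vesicle cargo, so the letters that pair with their seed were looked up in the 3′ untranslated regions of the 8 genes. The mature sequences in RefSeq (GRCm38.p6) share the seed, bases 2 to 8, shown in capitals. The first lies at chr15:85707325-85707346 on the plus strand. The second has copies at chr15:85706616-85706637 and chr16:77599672-77599693, both on the plus strand.
let-7b-5p: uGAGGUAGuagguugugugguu
let-7c-5p: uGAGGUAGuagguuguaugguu
The complement CTACCTC, searched on the sense strand only, occurred once in the longest annotated 3′ untranslated region of Zbtb16 (2845 bases) and once in that of Sall4 (1697 bases), and was not among the letters of the other 6. Both sites are shown as mRNA sense DNA of GRCm38 with the match in capitals. The Zbtb16 window lies at chr9:48655251-48655279 and the Sall4 window at chr2:168748930-168748958, both on the minus strand.
Zbtb16: ttttctaaaagCTACCTCttctgtttgtc
Sall4: ctttaatttatCTACCTCaattatcttta
Of 20831 protein-coding genes with such a region, 1874 (8.996%) hold the same letters, and of the 3442 with a region of 1697 to 2845 bases, 13.5% do. A match is a description of the letters and not a functional site. The levels of Zbtb16 and Sall4 are given below beside those of the other 6 genes.

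In vehicle germ cells 6 of the 8 genes were read from at least 200 UMIs over the 3 libraries, and the other 2, Utf1 and Pou5f1, from 144 and 4. Zbtb16 stood at 169 CPM in vehicle 1 and 172 CPM in vehicle 2 (95% Poisson intervals 160.5 to 177 and 165 to 180.2, for counting error only, as all intervals here). Hhex stood at 154 CPM in both vehicle libraries, and Taf4b at 113 CPM in both. These 3 genes differed between the vehicle libraries by less than the counting error. Sall4 was at 65.0 and 66.9 CPM and Dppa4 at 44.6 and 42.6 CPM, again within counting error of each other. Foxo1 was the member with the widest gap between the vehicle libraries, at 89.4 and 107 CPM, and its intervals (83.4 to 95.6 and 101 to 114) did not overlap. Utf1 reached 6.88 and 7.08 CPM from 65 and 78 UMIs. Pou5f1 gave 1 and 3 UMIs in 4411 and 4783 germ cells, and 2 and 1 UMIs in the feeder cells of the same libraries, so germ cells did not stand out from the feeder background for it.

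**Figure D1:**
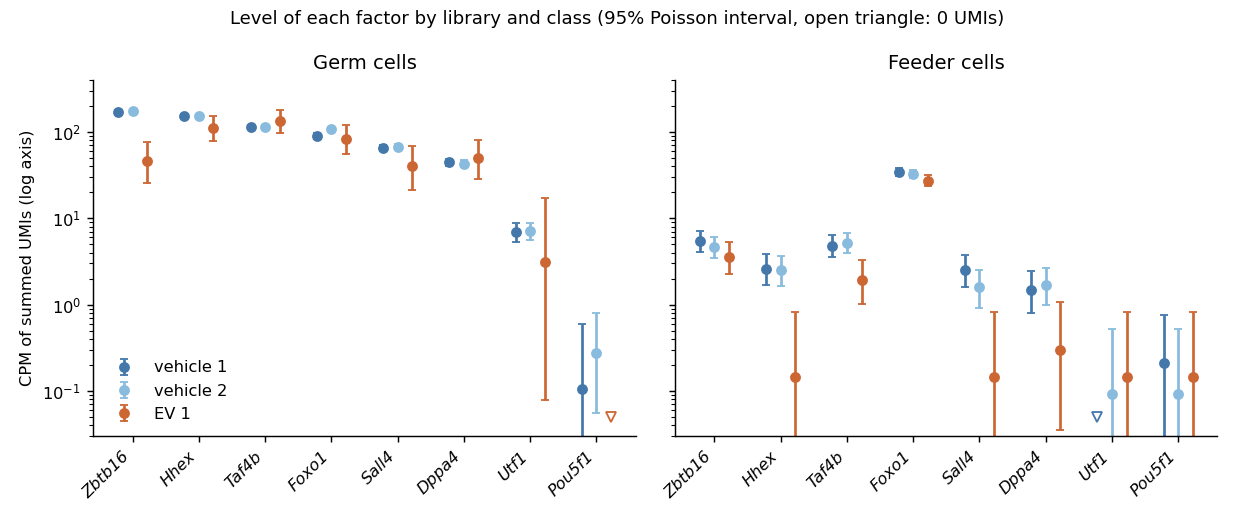
Level of the 8 factors in germ cells and in feeder cells, as CPM of UMIs summed per library on a log axis, with 95% Poisson intervals and open triangles for sums of 0. In germ cells EV 1 lies under both vehicle libraries for Zbtb16 (46.2 CPM) beyond its interval, and Foxo1 is the only factor above 20 CPM in feeder cells.

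Between germ and feeder cells of the same library, 7 of the 8 genes passed the low-count filter and all 7 were higher in germ cells (edgeR quasi-likelihood test on library sums, library as a block, adjusted p under 0.05). Of all 15629 genes tested, 40.1% were higher in germ cells and 41.7% lower, so a call alone sets few genes apart here and the size of the difference says more. The log2 difference was 5.80 ± 0.54 (SE, 3 libraries) for Utf1, 5.74 ± 0.17 for Hhex, 4.80 ± 0.18 for Sall4, 4.62 ± 0.20 for Dppa4, 4.55 ± 0.15 for Zbtb16 and 4.29 ± 0.14 for Taf4b, and 1.17 ± 0.10 for Foxo1 (edgeR adjusted p = 3.55e-11). The median over the 7 was 4.62, against -0.03 over all genes tested. Pou5f1, at 9 UMIs over all cells of the 3 libraries, was under the filter. Of the other lists, 8 of 11 paralogs and partners, 14 of 18 other regulators, 7 of 10 pluripotency factors and 5 of 5 genes regulated by members were also higher in germ cells, and 1, 3, 3 and 0 were lower.

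Foxo1 was the exception among the 7 in how much of it feeder cells carried. It stood at 34.2, 32.8 and 27.3 CPM in the feeder cells of vehicle 1, vehicle 2 and EV 1, which is 38.3%, 30.6% and 32.8% of its germ cell level. The other members with at least 200 UMIs in germ cells were at 1.63% to 4.602% of their germ cell level in the vehicle feeder cells. The 6 germ cell genes named above were at 2.46% and 1.82% there and at 0.606% in EV 1, which was taken as the background of germ cell RNA in feeder cells. Foxo1, Taf4b and Zbtb16 lay above it in all 3 libraries, Foxo1 by the widest margin. For Zbtb16 the intervals overlapped those of the background in both vehicle libraries. They were 2.40% to 4.25% against 2.03% to 2.97% in vehicle 1, and 2.00% to 3.57% against 1.47% to 2.23% in vehicle 2. Taf4b was at 4.24% and 4.602% in the vehicle libraries, with intervals (3.09% to 5.70% and 3.46% to 6.02%) clear of those of the background. In EV 1 it was at 1.45%, with an interval (0.714% to 2.74%) that overlapped that of the background (0.361% to 0.969%).

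In the feeder cells of EV 1, Hhex, Sall4, Dppa4, Taf4b and Foxo1 had lower levels than in both vehicle libraries, with intervals of the ratio that left out 1. The share of all feeder genes with such an interval was not counted. The 6 germ cell genes were lower there as well, at a sum of 2.95 CPM against 11.9 and 8.92 CPM, and the part of that background in the members' values was not tested. Hhex and Sall4 were at 0.147 CPM each (1 UMI) and Dppa4 at 0.295 CPM (2 UMIs), where the vehicle libraries had 2.61 and 2.51 CPM of Hhex, 2.51 and 1.58 CPM of Sall4 and 1.46 and 1.67 CPM of Dppa4. Taf4b was at 1.92 CPM against 4.81 and 5.21 CPM. Zbtb16 was at 3.54 CPM (24 UMIs) against 5.44 and 4.65 CPM, a ratio to the pooled vehicle libraries of 0.705 (0.432 to 1.11), whose interval holds 1. The feeder level of Zbtb16 in EV 1 was 7.66% of its germ cell level (3.86% to 15.7%), which was itself read from 15 UMIs. The 6 germ cell genes were at 0.606% (0.361% to 0.969%) in the same library. Utf1 had 0, 1 and 1 feeder UMIs in the 3 libraries. In feeder cells 1 member, Foxo1, met the minimum of 200 UMIs, and it was not at least 2-fold lower (ratio 0.815, 0.689 to 0.960), against 2.82% of 9705 genes that were.

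Among germ cells, Zbtb16 was, of the 6 members with at least 200 UMIs, the one with the lowest ratio of EV 1 to the vehicle libraries. It was read from 15 UMIs in 227 EV 1 germ cells, 46.2 CPM (25.8 to 76.1), against 1593 and 1897 UMIs and 169 and 172 CPM in the vehicle libraries. The interval of EV 1 does not reach the vehicle values, and the ratio to the pooled vehicle libraries was 0.271 (0.151 to 0.447). The vehicle libraries themselves were 0.03 apart on the log2 scale, and the log2 ratio of EV 1 to their mean, with 0.5 UMI added, was -1.84. It was the 1 member of the 6 at least 2-fold lower in EV 1, and 0 were at least 2-fold higher, while of 9674 genes with at least 200 UMIs 4.49% were that much lower and 4.15% that much higher. A count of 1 among 6 is thus a description of Zbtb16 and not of the set.

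Hhex and Sall4 had lower values in EV 1 and ratios nearer to 1. Hhex was at 111 CPM (36 UMIs) against 154 and 154 CPM, a ratio of 0.718 (0.502 to 0.997), whose interval just leaves out 1. Sall4, the zinc finger partner of Zbtb16, was at 40.0 CPM (13 UMIs) against 65.0 and 66.9 CPM, with a ratio of 0.606 (0.322 to 1.039). Foxo1 was at 83.1 CPM (27 UMIs) in EV 1, and its ratio of 0.839 (0.551 to 1.22) was within counting error of no difference. Taf4b (132 CPM, 43 UMIs, ratio 1.17, 0.843 to 1.58) and Dppa4 (49.2 CPM, 16 UMIs, ratio 1.13, 0.644 to 1.85) were at or above the vehicle values, again within counting error. Utf1 had 1 UMI and Pou5f1 had 0, so nothing can be said of either at this depth. For Pou5f1 a count of 0 allows up to 9.23 CPM. The median log2 ratio over the 6 members was -0.34, against 0.01 over all genes.

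**Figure D2:**
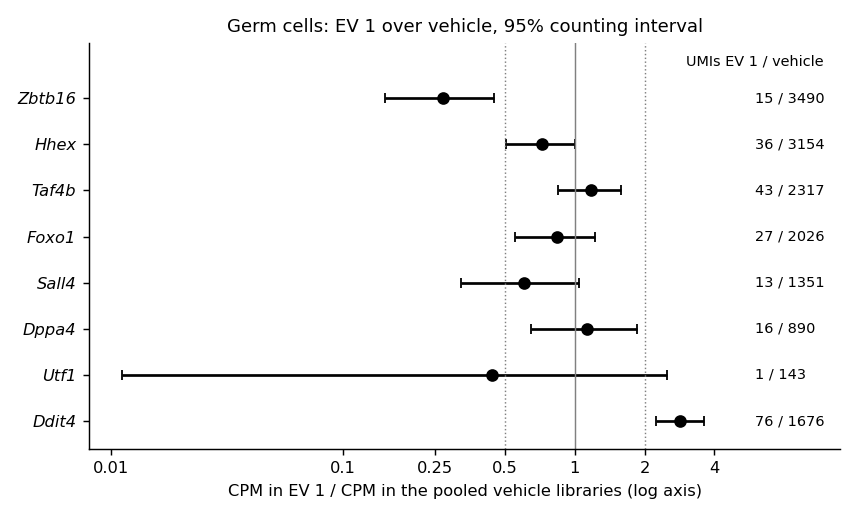
Ratio of the EV 1 level to the pooled vehicle level in germ cells on a log axis, with 95% counting intervals, for the 7 factors with UMIs in both arms and for Ddit4, with the UMIs behind each ratio at the right. The interval of Zbtb16 lies wholly under a ratio of 0.5 and that of Ddit4 wholly above 2, while those of Taf4b, Foxo1, Sall4, Dppa4 and Utf1 hold 1.

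Other values were also set side by side for EV 1 and vehicle germ cells. The fibroblast list was at 292 CPM (95 UMIs) against 190 and 181 CPM. The Sertoli list was at 64.6 CPM (21 UMIs) against 42.4 and 33.7 CPM, with 3 of its 6 genes detected. The macrophage list was at 18.5 CPM (6 UMIs) against 6.46 and 7.08 CPM. For the endothelial list it was 27.7 CPM (9 UMIs) against 18.2 and 19.3 CPM. A Leydig cell list was at 6.15 CPM (2 UMIs) against 6.56 and 7.35 CPM. A myoid cell list was at 12.3 CPM (4 UMIs) against 14.5 and 11.99 CPM. These sums are given without counting intervals, and whether they differ beyond counting error was not tested. The median depth per cell was 1322 UMIs against 1936 and 2091. The part of these values in the Zbtb16 result was not tested. The 6 germ cell genes summed to 484, 490 and 486 CPM, but not each alike, with Dnd1 at a ratio of 0.527 (0.294 to 0.871) and Ddx4 at 1.35 (1.02 to 1.75). Scaled to their sum the log2 ratio of Zbtb16 was also -1.84. With a stricter gate, which asked for at least 4 marker UMIs and 4 times those of the other class, it was -1.85. Among the 9674 genes, leaving out those without an annotated protein-coding 3′ untranslated region, the 945 with the let-7 seed match in the 3′ untranslated region had a median log2 ratio of 0.02 and the 8343 without it a median of 0.00, and 4.66% and 4.29% were at least 2-fold lower in EV 1.

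Over all cells kept, 5 of the 6 members with at least 200 UMIs were at least 2-fold lower in EV 1, where 19.3% of 12585 genes were. Zbtb16 was at 5.19 CPM against 84.0 and 87.7 CPM, and Foxo1, at 36.4 CPM against 61.5 and 69.5 CPM, was the member that did not reach that fold. In such sums fewer cells of a type and less RNA per cell cannot be told apart, and EV 1 had 4.75% germ cells. Cells of neither class carried 144 and 157 Zbtb16 UMIs in the vehicle libraries (63.0 and 70.3 CPM) and 13 in EV 1 (4.47 CPM). Of the 9 Utf1 UMIs of EV 1, 7 were in cells of neither class, so for this gene the gate left out most of its molecules in that library. Of the EV 1 UMIs, germ cells also held the lesser part for Zbtb16 (28.8%), Taf4b (45.7%) and Foxo1 (7.40%). They held the greater part for Sall4 (54.2%), Dppa4 (72.7%) and Hhex (72.0%).

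To compare shares of cells, each cell was thinned to 1000 UMIs at random and shallower cells were left out, which kept 4265, 4671 and 178 germ cells. Zbtb16 was then found in 14.1%, 14.4% and 5.62% of germ cells of vehicle 1, vehicle 2 and EV 1. The EV 1 share, 10 of 178 cells (2.73% to 10.1%, exact Clopper-Pearson), lay under both vehicle intervals (13.1% to 15.2% and 13.4% to 15.4%). Without thinning the shares were 26.2%, 28.7% and 6.61%. Hhex was found in 13.95%, 14.3% and 11.2% of thinned germ cells, Taf4b in 10.7%, 9.89% and 11.8%, and Foxo1 in 8.11%, 10.2% and 7.87%. Sall4 was found in 5.98%, 6.34% and 3.93%, and Dppa4 in 4.78%, 4.45% and 3.93%. For these 5 genes the EV 1 interval overlapped those of both vehicle libraries. Utf1 was found in 0.610%, 0.771% and 0.562% of germ cells, and Pou5f1 in 1, 1 and 0 cells, where 0 of 178 allows a share of up to 1.69% by the limit of 3 counts and 2.05% by the exact interval.

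Feeder cells at the same depth give the background of these shares. They held a Zbtb16 UMI in 0.616%, 0.538% and 0.301% of cells, a Taf4b UMI in 0.528%, 0.455% and 0.215%, and a Hhex UMI in 0.220%, 0.290% and 0% (0 of 2324). Foxo1 was again apart, with 3.57%, 3.02% and 2.75%. The 8 genes had higher shares in vehicle germ cells than in vehicle feeder cells, but Pou5f1 was so from 1 germ cell in each library against 0 feeder cells, and Utf1 from 26 and 36 germ cells against 0 and 1 feeder cells.

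**Figure D3:**
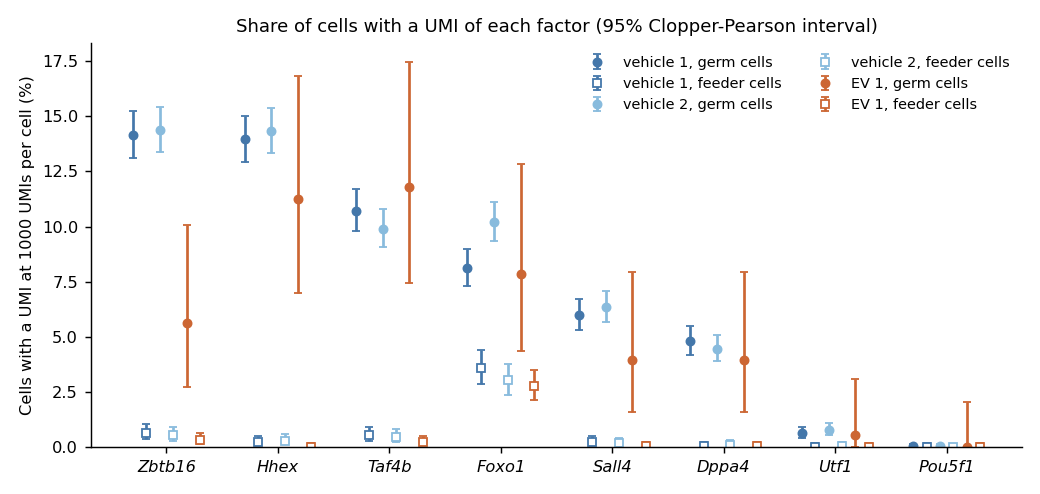
Share of cells with a UMI of each factor after thinning to 1000 UMIs, in germ cells (filled circles) and feeder cells (open squares) of the 3 libraries, with exact 95% Clopper-Pearson intervals. The Zbtb16 share of EV 1 germ cells (5.62%) lies under both vehicle shares, and Foxo1 has the highest share in feeder cells (2.75% to 3.57%).

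At 1000 UMIs a germ cell seldom showed more than 1 of the 8 genes. At least 1 was found in 46.0%, 47.3% and 38.8% of germ cells and in 5.02%, 4.47% and 3.36% of feeder cells of vehicle 1, vehicle 2 and EV 1. At least 2 were found in 11% (10.1% to 11.97%), 11.4% (10.5% to 12.3%) and 5.06% (2.34% to 9.38%) of germ cells, the last being 9 of 178. At most 4 were found in 1 cell of the vehicle libraries and at most 3 in EV 1. The share of cells with at least 2 in EV 1 was 6.13 points under the vehicle mean in this draw, and 4.66 points under it as the mean over all possible draws.

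Whether cells with 1 factor more often held another was read for the 15 pairs of the 6 members with at least 200 UMIs, of the 28 pairs in all. In the vehicle libraries, 15.8% and 15.8% of germ cells with a Zbtb16 UMI also had a Hhex UMI, against 13.7% and 14.1% of those without, and the intervals overlapped (12.9% to 18.9% against 12.6% to 14.8% in vehicle 1). Sall4 and Foxo1 went the other way, with a Foxo1 UMI in 5.10% and 5.74% of cells with Sall4 and in 8.30% and 10.5% of cells without. That pair did not keep its direction, however, since the mean over all thinning draws was 0.83 points in vehicle 1 and -0.92 points in vehicle 2. Over the 15 pairs in the single draw, 3 were higher in both vehicle libraries, 6 were lower in both and 6 differed in sign, with a median of -0.66 points. As the mean over draws, the median was 0.22 points and 4 pairs were higher in both. Zbtb16 with Hhex was higher in both libraries by either reading (1.21 and 1.76 points as the mean over draws). Without thinning all 15 pairs were higher in both libraries, with a median of 4.09 points. In EV 1, 6 of the 15 pairs were found together in any cell, in at most 3 cells.

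**Figure D4:**
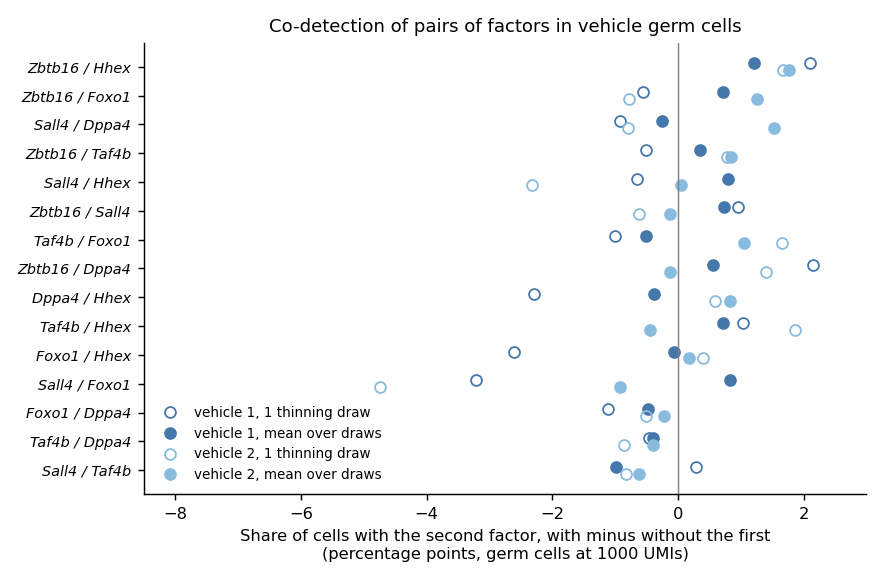
Difference in the share of germ cells with the second factor between cells with and without the first, in percentage points at 1000 UMIs, for 15 pairs in the vehicle libraries. Open circles are from 1 thinning draw and filled circles the mean over draws, and the pairs scatter around 0, with Zbtb16 and Hhex on the right in all 4 readings.

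Within germ cells at 1000 UMIs, the members were next set against transcripts of the differentiation switch, Stra8 (a retinoic acid response gene of premeiotic cells) and Kit (the receptor of differentiating spermatogonia). A Stra8 or Kit UMI was found in 782, 830 and 19 cells. Of the 6 members tested, 0 were higher and 0 lower in these cells (edgeR adjusted p under 0.05; 1 at an unadjusted p under 0.05, 0 by DESeq2), where 0.0779% of 8989 genes were higher and 0.4% lower. Sall4 had the widest difference, at 60.1 against 70.3 CPM in vehicle 1 and 44.6 against 69.5 CPM in vehicle 2, a log2 difference of -0.45 ± 0.18 (adjusted p = 0.446). Zbtb16 was at 119 against 158 CPM and at 163 against 170 CPM (log2 difference -0.23 ± 0.12, adjusted p = 0.703). Both were lower in both vehicle libraries and neither passed the test. Among the other regulators of the undifferentiated state, 2 of the 14 tested fell and 0 rose. These were Lhx1, a LIM homeobox gene downstream of GDNF signalling (log2 difference -1.57 ± 0.26), and Chd4, a chromatin remodeller of the NuRD complex (-0.29 ± 0.07). Of the 4 tested genes known to be regulated by members, 2 fell, Lhx1 again and Ret (-0.75 ± 0.16). All 3 calls were lost with DESeq2 and without vehicle 2, and those of Chd4 and Ret also without vehicle 1, with the same direction each time. Of 6 paralogs and partners and of 6 pluripotency factors, 0 passed in either direction by edgeR, with 1 in each list at an unadjusted p under 0.05.

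The GDNF receptor, encoded by Gfra1 and Ret, marks the stem cell end of the undifferentiated pool. A Gfra1 or Ret UMI was found in 1009, 1197 and 26 germ cells at 1000 UMIs, which is 23.7%, 25.6% and 14.6%. Zbtb16 was at 174 CPM in vehicle 1 cells with such a UMI and 143 CPM in those without, and at 214 and 153 CPM in vehicle 2. In EV 1 it was at 192 CPM (5 UMIs in 26 cells) and 32.9 CPM (5 UMIs in 152 cells). It was higher in the receptor-positive cells of all 3 libraries, with a log2 difference of 0.41 ± 0.09 (edgeR adjusted p = 0.00387). It was the 1 member of the 6 tested that rose and 0 fell, where 0.504% of 9911 genes rose and 0.192% fell. The call was lost with DESeq2, without the library block (log2 difference 0.43, adjusted p = 0.0665) and without either vehicle library (0.55 without vehicle 1 and 0.35 without vehicle 2), with the same direction each time. It held without EV 1, where the direction rests on the vehicle libraries alone.

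The other 5 members did not pass in that comparison. Sall4 was at 85.2 against 63.3 CPM and 69.3 against 63.6 CPM (log2 difference 0.26 ± 0.14, adjusted p = 0.722), Taf4b at 122 against 103 CPM and 114 against 98.2 CPM (0.20 ± 0.12, adjusted p = 0.751), and Foxo1 at 71.4 against 88.1 CPM and 106 against 111 CPM (-0.17 ± 0.13, adjusted p = 0.850). Of the 15 other regulators tested, Chd4 rose (0.29 ± 0.06) and 0 fell. Of 4 genes known to be regulated by members, Ddit4, an inhibitor of mTORC1 that Zbtb16 is known to induce, fell in receptor-positive cells (-0.58 ± 0.14, edgeR adjusted p = 0.00639), the opposite direction to Zbtb16 itself. The calls of Chd4 and Ddit4 were also lost with DESeq2 and without either vehicle library.

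Cell cycle state was read from 23 G2/M genes and 22 S genes, which put 1812, 1990 and 55 germ cells in a G2/M group and 1876, 2109 and 81 in an S group. Dppa4, a chromatin protein of pluripotent cells, was at 32.6 CPM in G2/M and 58.6 CPM in S in vehicle 1, and at 35.7 and 48.8 CPM in vehicle 2. EV 1 had 54.5 and 74.1 CPM from 3 and 6 UMIs. It was lower in G2/M in all 3 libraries and was the 1 of 7 members that fell, with a log2 difference of -0.65 ± 0.17 (edgeR adjusted p = 0.00281), and 0 rose, where 3.32% of 11300 genes rose and 3.42% fell. That call was lost with DESeq2 and without either vehicle library (log2 difference -0.45 without vehicle 1 and -0.83 without vehicle 2). Taf4b was at 116 against 104 CPM and 123 against 86.3 CPM, a log2 difference of 0.30 ± 0.10 that did not pass (adjusted p = 0.0543), while without EV 1 it did (0.35, adjusted p = 0.0195). Zbtb16 was at 155 against 151 CPM and 175 against 168 CPM (0.04 ± 0.08, adjusted p = 0.855), with close levels in both groups. Among the other lists, 4 of 15 regulators fell (Chd4, Foxc2, Bcl6b and Lhx1) and Dmrt1 rose, 1 of 9 paralogs and partners fell (Foxo6), Tfcp2l1 was the 1 of 8 pluripotency factors that rose, and Kit rose and Lhx1 fell among the 5 genes regulated by members. Each of these 8 calls was lost under at least 1 alternative, with no change of direction. Phase groups of this kind rest on few UMIs a cell and were not checked otherwise.

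**Figure D5:**
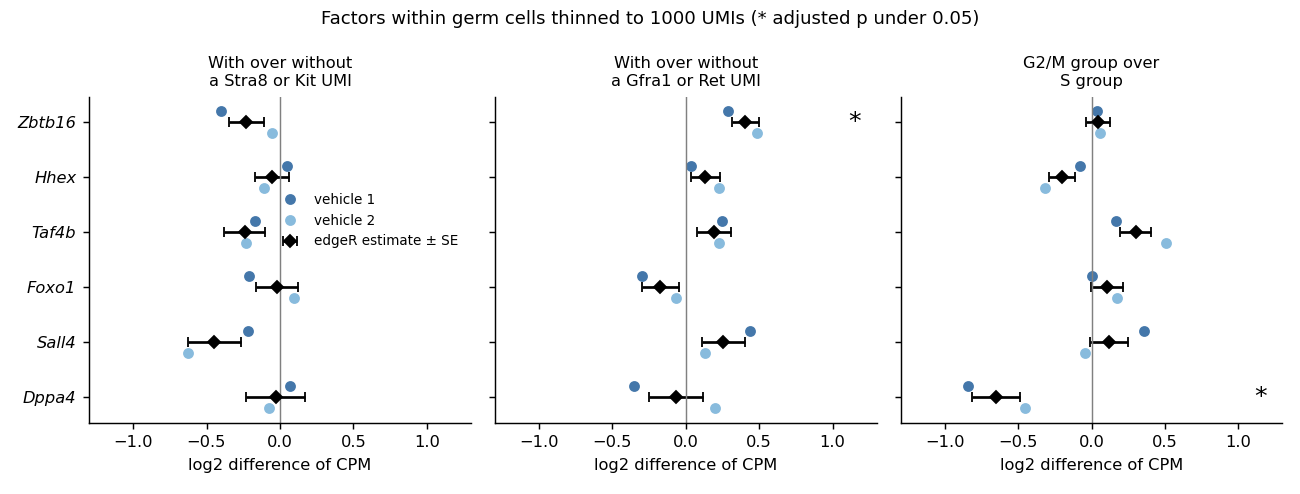
Log2 difference of 6 factors within germ cells thinned to 1000 UMIs, for 3 splits of the cells. Circles are the vehicle libraries and diamonds the edgeR estimate over the 3 libraries with its SE, and a star marks an adjusted p under 0.05, which Zbtb16 reached for Gfra1 or Ret (0.41) and Dppa4 for the cell cycle (-0.65).

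Paralogs and partners of the members were described from a list of 12. In germ cells 7 met the minimum of 200 UMIs, of which 2 were at least 2-fold lower in EV 1 and 1 at least 2-fold higher, against 4.49% and 4.15% of all genes, with a median log2 ratio of 0.13. Sall3, a paralog of Sall4, was at 54.2 and 62.1 CPM in the vehicle libraries and at 15.4 CPM (5 UMIs) in EV 1, a ratio of 0.263 (0.0853 to 0.616). Foxo6, a paralog of Foxo1, had 1 UMI in EV 1 and 375 in the vehicle libraries (ratio 0.168, 0.00424 to 0.941). Zbtb7a, of the same family as Zbtb16, was at 24.6 CPM (8 UMIs) against 12.2 and 12.3 CPM, with an interval that holds 1 (ratio 2.01, 0.860 to 4.03), and it kept the fold in 6 of 10 alternatives. Lower and higher values thus stood side by side among the paralogs.

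Of 21 other regulators of the undifferentiated state, 15 met the minimum, 3 were at least 2-fold lower in EV 1 germ cells and 0 higher, against the same 4.49% and 4.15%, with a median log2 ratio of -0.36. Bmi1, a Polycomb component, had 0 UMIs in EV 1 and 621 in the vehicle libraries (29.6 and 31.0 CPM), which makes it at least 3.28-fold lower against a floor of 3 counts in that library, while the exact interval of its ratio reaches up to 0.375. In feeder cells it was at 16.5 CPM against 23.3 and 25.6 CPM. Foxc2, a forkhead factor of quiescent stem cells, was at 9.23 CPM (3 UMIs) against 32.6 and 32.5 CPM (ratio 0.284, 0.0583 to 0.832). Id4, a stem cell marker, had 1 UMI against 309, with an interval that holds 1 (0.204, 0.00514 to 1.14). Dmrt1 (ratio 0.625, 0.479 to 0.80) and Chd4 (ratio 0.695, 0.585 to 0.820) were lower by less than 2-fold, from 63 and 142 UMIs.

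Of 14 pluripotency factors, 6 met the minimum, and 1 was at least 2-fold lower (Mycn, 1 UMI against 342, ratio 0.184, 0.00465 to 1.03) and 1 reached 2-fold higher only with the 0.5 UMI added (Klf2, 7 UMIs against 233, log2 ratio 1.02, ratio without it 1.89, 0.752 to 3.96). Klf2 kept that fold in 5 of 10 alternatives, with a log2 ratio down to 0.60. The intervals of Mycn and Klf2 both hold 1. Of the 5 genes regulated by members, Ddit4 was the 1 at least 2-fold different. It was at 78.8 and 84.6 CPM in the vehicle germ cells and 234 CPM (76 UMIs) in EV 1, a ratio of 2.85 (2.24 to 3.59), while in feeder cells it was at 17.7, 15.7 and 18.4 CPM. Kit, which Zbtb16 is known to repress, was at 33.8 CPM against 39.4 and 41.8 CPM (ratio 0.832, 0.414 to 1.497). The receptor gene Ret was at 70.8 CPM against 97.3 and 106 CPM (ratio 0.695, 0.440 to 1.05), and Egr4 at 46.2 CPM against 71.7 and 75.5 CPM (ratio 0.626, 0.349 to 1.03).

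The genes most like each member over the 9 sums of 3 libraries and 3 classes were found by Pearson's r of log2(CPM + 1) among 12584 genes. The values are a description, since the 9 sums share libraries and depth and 1166 to 2128 genes reached an r of at least 0.95. For Zbtb16 these were Cdh15 (r = 0.998), Gm26806 and Dmrt3, for Sall4 Esrp1 (0.999), Igfbp2 and Zfp518a, and for Taf4b Ppp2r2c (0.999), Pou3f1 and Arhgdig. For Foxo1 they were Rbm5 (0.999), Vps50 and Herc1, for Dppa4 Sox13 (0.998), Batf3 and 1700016K19Rik, and for Hhex Ung (0.999), Tcfl5 and Ptprf.

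In the annotation of GRCm38 (GENCODE vM21), Zbtb16 spans chr9:48654297-48836222, Sall4 chr2:168748332-168767943, Taf4b chr18:14783245-14900359, Foxo1 chr3:52268336-52353221, Pou5f1 chr17:35506018-35510772, Utf1 chr7:139943789-139945112, Dppa4 chr16:48283733-48294237 and Hhex chr19:37434810-37440731. Sall4, Foxo1 and Pou5f1 each overlap a gene on the opposite strand (Gm14261, Gm20402 and Gm19553), and the strand setting of the counting is not given in the sources used here, so reads of these pairs may be shared.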

How the data were processed

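Single-cell libraries had been made by the authors from the cultures with a 10x Genomics droplet protocol, and per the submitters' processing notes and the study's methods UMIs were counted with Cell Ranger 7.0.1 on mm10 (GENCODE vM23). Whether intronic reads were counted is not given in the sources used here. What the authors deposited are counts of UMIs for each barcode and gene, without normalization. Groups came from the sample titles. The p-values are for these libraries only, with a spread that edgeR shares over genes. For the splits within germ cells the SEs were close to the counting error of the summed UMIs. Those p-values therefore say little of how much a gene varies between libraries. Between libraries at most 22 barcodes were shared.

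Barcodes passed when they had more than 400 genes, fewer than 4000, and a mitochondrial share below 10%, and those with the highest Scrublet scores (scanpy 1.11.5) were removed as doublets, at 0.8% for each 1000 barcodes. This left 8263, 8637 and 4779 cells. UMIs were summed per library and class. EV 1 was compared with the vehicle mean by log2 ratio (0.5 UMI added, called at 2-fold among genes with at least 200 UMIs), with exact conditional intervals. Within libraries, edgeR 4.0.16 (glmQLFit, TMM, filterByExpr, library block, Benjamini-Hochberg, 0.05; SE from the F statistic) was fitted on sums, leaving out the genes that defined the split, and DESeq2 1.42.0 was an alternative. The edgeR step was tested on simulated data with 200 genes per comparison changed by a log2 of 2 or 3 in size. It found 99% to 100% of them, with 3 to 5 false calls. Smaller changes, such as those called within germ cells, were not simulated. Phase groups needed at least 2 UMIs of 1 list and more than of the other. Reference work used GENCODE vM21 and RefSeq tables of the same build. Python 3.11.15, scipy 1.17.1 and R 4.3.3 were used. The members and gene lists were chosen with earlier results of these data known. The named genes are the 8 members, the genes of the 4 lists past the test or the fold, those whose interval left out 1 or that stand beside them for contrast (Dmrt1, Chd4, Kit, Ret and Egr4 in the EV comparison, chosen after their values were seen), and the 3 most like genes per member.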

Additional observations from a re-analysis of the deposited data

Results flagged for a closer look

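Among the 6 members with at least 200 UMIs in germ cells, 5 cases were flagged. In a split of germ cells, the direction in EV 1 had to be opposite to that of both vehicle libraries, also in the plain levels. Between classes, EV 1 had to differ from both in opposite directions in germ and feeder cells. The share of all genes with such cases was not counted. Foxo1 for Gfra1 or Ret (-0.30 and -0.07 in the vehicle libraries, 0.11 in EV 1) was left out, its plain EV 1 levels being 76.9 against 85.5 CPM. The log2 values have 0.5 UMI added. None of these differences was tested, and each rests on few EV 1 UMIs. For cells with against without a Gfra1 or Ret UMI, Taf4b had a log2 difference of -0.80 in EV 1 (2 and 25 UMIs) against 0.24 and 0.22 in the vehicle libraries. For G2/M against S, Taf4b had -0.58 in EV 1 (7 and 16 UMIs) against 0.16 and 0.51, and Hhex had 0.56 (8 and 8 UMIs) against values under 0 in both. Between germ and feeder cells, the log2 ratio of EV 1 to vehicle was 1.59 higher in germ cells for Taf4b and 2.35 higher for Dppa4, whose feeder UMIs in EV 1 numbered 13 and 2.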

How the results depend on the processing

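Of the 6 members, 1 was at least 2-fold lower in EV 1 germ cells under all 11 alternatives run (pseudocount, scaling, UMI minimum, filters, gate and leaving out a vehicle library), and the log2 ratio of Zbtb16 ranged from -1.99 to -1.82 over 10 of them. Scaling shifted all germ cell ratios by -0.16 (TMM) and -0.14 (RLE), and Dppa4 turned from 0.22 to -0.06 with the mean over cells. With a minimum of 50 UMIs, 2 of 4 members tested were at least 2-fold lower in feeder cells instead of 0 of 1, where 4.90% of 12877 genes were. The number of members whose EV 1 share lay under both vehicle shares went from 7 to 4 of 8 with the stricter gate, Utf1 and Pou5f1 with at most 1 EV 1 cell included. Over the 6 members with at least 200 UMIs it went from 5 to 3, where 48.8% and 49.2% of 9674 genes lay under both.

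The difference in cells with at least 2 members (-6.13 points) was -2.09 at 500 UMIs, -9.19 at 2000, -22.3 not thinned, -5.03 with doublets kept, -3.70 over all barcodes, -6.50 with the stricter gate, -4.66 as the mean over draws and -4.62 with the gate applied after thinning, an alternative chosen after seeing the data, as was scaling to 6 germ cell genes. In the same order the median co-detection difference (-0.66 points) was 0.0676, 0.36, 4.09, 0.39, 0.15, 0.0796, 0.22 and 0.62, with the sign turned in each. The cause was not tested.

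In the Gfra1 or Ret comparison the count of 1 member became 0 with DESeq2 and 0 without the replicate block, and 0 to 1 when a library was left out. In the cell cycle comparison the count of 1 became 0 with DESeq2, 2 with RLE factors, 2 at 2000 UMIs and 2 not thinned, and 0 to 2 when a library was left out. DESeq2 called 0, 0 and 28 genes in the 3 comparisons within germ cells, where edgeR called 43, 69 and 761, and edgeR without the replicate block called 26, 29 and 343. Without vehicle 1 these counts were 1, 0 and 68, and without vehicle 2 they were 0, 1 and 72. Not thinned, edgeR called 600, 857 and 2254, and for Stra8 or Kit it called 106 without EV 1 and 90 at 2000 UMIs. The block joins cells of 1 library, so the pairing comes from the design. No paired analysis was possible because EV 2 gave no counts here, and the labels tie a replicate number to no shared culture, batch or day. The stricter gate was not run over all cells, where no gate applies. Precision in EV 1 is limited by its 325012 germ cell UMIs.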
